A study of Oncorhynchus mykiss with 12 samples.

Results

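The enzymes that carry pyruvate into mitochondria, convert it to acetyl-CoA and oxidise it in the tricarboxylic acid (TCA) cycle were followed at the mRNA level in the liver of rainbow trout (Oncorhynchus mykiss) after 1 month of moderate hypoxia. They were the rows of the gene table whose symbol was 1 of 27 names (mpc1, mpc2, the pyruvate dehydrogenase subunits, kinases and phosphatase, and the cycle enzymes), with or without a paralog suffix. Rows whose description began with the name of citrate synthase, isocitrate dehydrogenase, succinate dehydrogenase or pyruvate dehydrogenase were added. This gave 87 of 42128 rows. By the rule, 32 came from the symbol alone, 14 from the description alone and 41 from both, and all 27 symbols were found. The rows belong to 35 enzymes or accessory factors, each usually with several paralogous loci. The other 4 rows carry the symbol dld but are described as delta-like Notch ligands, not as dihydrolipoyl dehydrogenase. They had at most 12 counts in any library and were not tested. No read fell on 3 of the 87 rows, and 72 passed the filter of a mean of at least 0.5 FPKM (fragments per kilobase of transcript, scaled to library size).

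The 6 RNA-seq libraries came from wild-type liver, 3 from fish held for 1 month at 4.5 ± 0.1 mg/L dissolved oxygen and 3 from controls. No other genotype, agent or age is given for either group, and the 12 h exposure of the study was not used here. Whether each replicate is its own fish is not stated. The p-values therefore rest on the spread between 3 libraries a group, and that spread may be technical.

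Pyruvate enters the mitochondrion through a carrier made of Mpc1 and Mpc2, and the pyruvate dehydrogenase complex turns it irreversibly into acetyl-CoA. Pyruvate dehydrogenase kinases switch the complex off by phosphorylation and its phosphatases switch it on again, and in mammals some of the kinase genes are induced by low oxygen or fasting. The cycle then oxidises acetyl-CoA and hands electrons to the respiratory chain, and in liver its intermediates also feed glucose, lipid and amino acid synthesis.

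The libraries held 19060468 to 20128921 counts in hypoxia and 19376248 to 23152833 counts in controls. The 87 rows took 0.133% to 0.16% of the counts in hypoxia and 0.149% to 0.161% in controls. Summed hepatocyte markers were 107000 ± 3340 FPKM in hypoxia and 95600 ± 1010 FPKM in controls (SD, n = 3 each). Summed red cell markers were 565 ± 74.2 FPKM in hypoxia (481 to 620), against 1100 ± 173 FPKM in controls (912 to 1250), with 24 of 52 rows at 0. In edgeR at an adjusted p under 0.05, 14 of 15 tested hemoglobin loci fell, against 0 of 6 other red cell markers. Stellate and matrix markers summed to 221 ± 45.4 FPKM in hypoxia and 320 ± 42.5 FPKM in controls, and 4 of 19 fell. Endothelial markers summed to 28.0 ± 0.629 FPKM in hypoxia and 33.0 ± 1.24 FPKM in controls, and 1 of 15 fell. Among 20 tested hepatocyte markers, 1 rose and 1 fell. Of all tested genes, 3.83% rose and 3.39% fell. The part of these cell types in the results on the enzymes was not tested. In bulk liver, fewer cells of a type and less RNA per cell cannot be told apart. Along the leading principal component (44.1% of variance), the score of control replicate 1 (-9.57) fell between the hypoxia libraries (24.9 to 33.2) and the other controls (-41.8 and -38.7).

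Of the 72 tested loci, 1 rose in hypoxia (idh1) and 1 fell (ogdh), by edgeR's quasi-likelihood test at a Benjamini-Hochberg adjusted p under 0.05 over all 19365 tested genes. That is 1.39% of the loci in each direction, against 3.83% of all tested genes higher and 3.39% lower. At an unadjusted p under 0.05, 7 loci were higher and 7 lower, 9.72% each, against 12.1% and 11.6% of all genes. The 3 hypoxia values all lay above the 3 control values at 9 loci (12.5%, against 13.9% of all genes) and all below them at 4 (5.56%, against 13.1%). DESeq2 called 2 loci higher and 1 lower, against 4.91% and 4.34% of all genes. Without control replicate 1, edgeR called 1 higher (idh1) and 3 lower (ogdh, DLD and Pdk2), against 5.84% and 5.45%. The median log2 fold change of hypoxia over control was -0.03 and ranged from -0.62 to 1.06, and that of all tested genes was 0.00. The 95% interval of the fold change lay within 2-fold in either direction for 64 of the 72 loci (88.9%, against 77.0% of all genes). It lay within 1.5-fold for 35 (48.6%, against 35.1%).

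**Figure D1:**
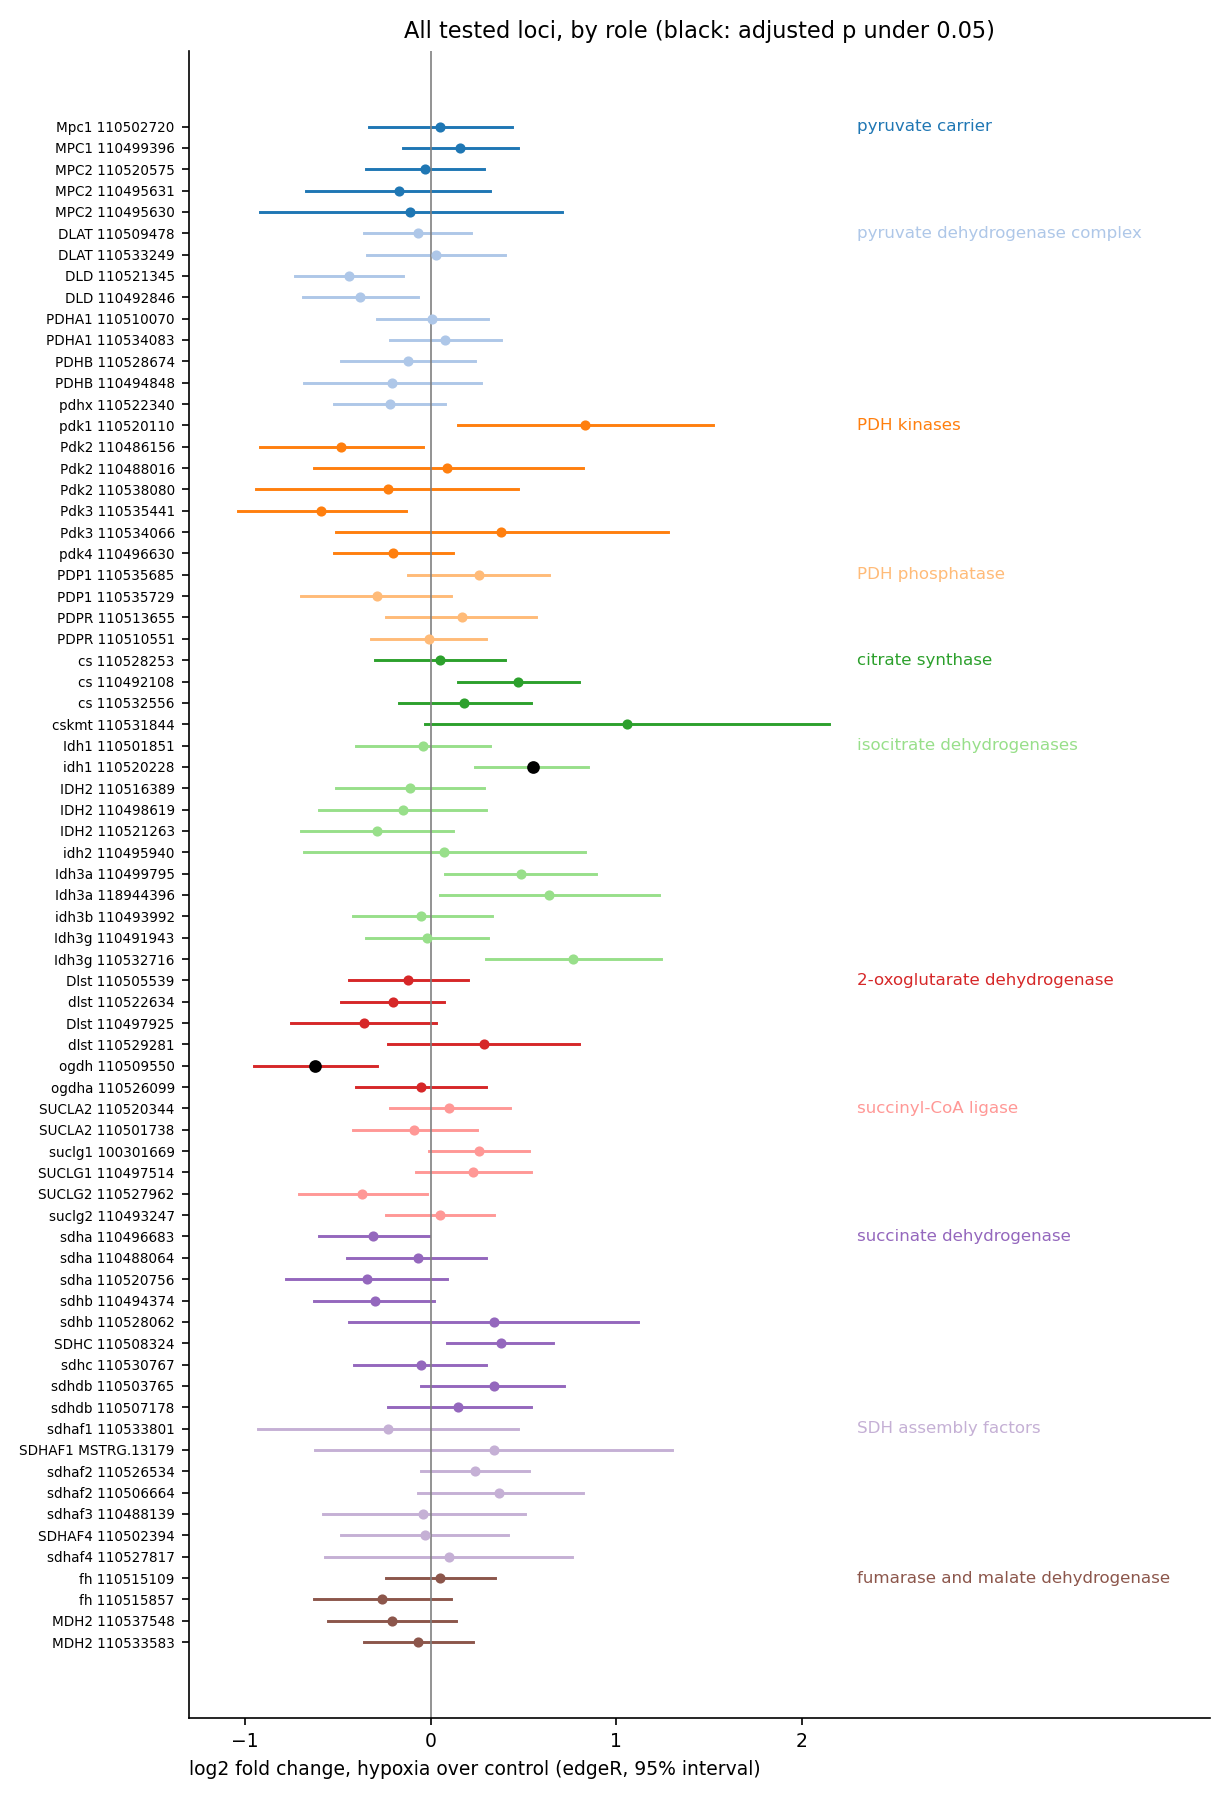
Log2 fold changes of hypoxia over control for the tested loci by role, with 95% intervals from edgeR. Apart from the ogdh locus on the left (-0.62) and the idh1 locus on the right (0.55), both past the adjusted threshold, the loci did not pass, and their values lie on both sides of 0.

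Counts were also summed over the loci of each enzyme, since closely similar salmonid paralogs may exchange reads in counting. No summed enzyme passed the adjusted threshold in edgeR, 0 of 35 in either direction, against 3.83% of all features higher and 3.39% lower in the same fit. At an unadjusted p under 0.05, 2 enzymes were higher and 4 lower in edgeR, against 12.1% and 11.6% of all features. DESeq2 called 1, the summed ogdh loci, lower at an adjusted p of 0.0255, against 4.35% of all features lower. The interval of the summed change lay within 2-fold for 33 of the 35 enzymes and within 1.5-fold for 27.

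**Figure D2:**
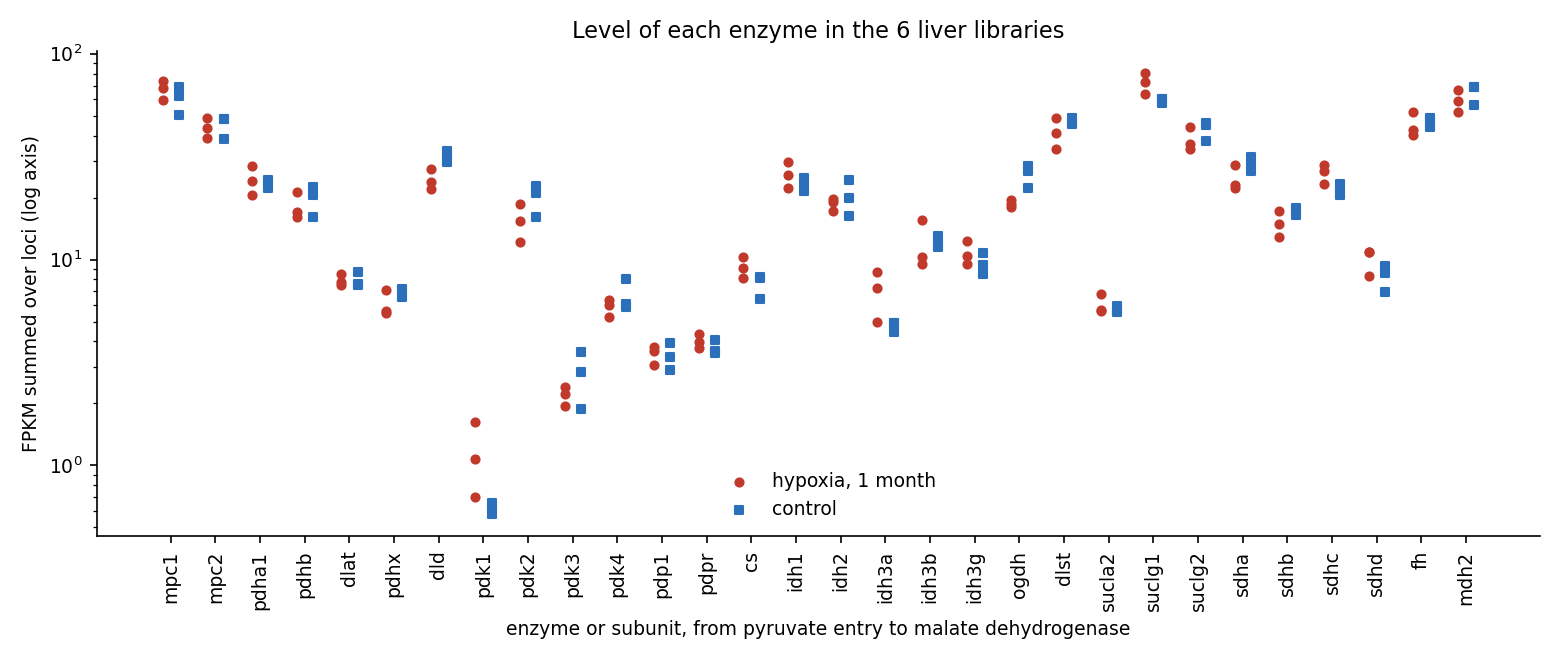
Summed FPKM of each enzyme in every library, hypoxia left of control, on a log axis, with citrate synthase lysine methyltransferase and the assembly factors left out. The groups overlap except for ogdh and dld, with all hypoxia libraries below all controls, and pdk1, idh3a, sdhc and suclg1, with all above. Of all tested genes, taken locus by locus, 13.1% were without overlap lower and 13.9% higher.

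The mitochondrial pyruvate carrier had 5 tested loci of 7, none past the threshold, with log2 fold changes between -0.17 and 0.16. The most abundant, Mpc1 (110502720), had 39.4, 32.1 and 37.8 FPKM in hypoxia, against 26.6, 34.1 and 40.3 FPKM in controls. The groups overlapped, and its log2 fold change was 0.05 (95% interval -0.33 to 0.44). All carrier loci together summed to 98.7 to 118 FPKM in hypoxia and 99.0 to 110.5 FPKM in controls.

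In the pyruvate dehydrogenase complex, PDHA1 (110510070), the alpha subunit of the decarboxylase and the target of the kinases, had 20.9, 17.6 and 25.1 FPKM in hypoxia, against 21.3, 21.1 and 19.6 FPKM in controls. All 3 controls lay inside the hypoxia range, and the log2 fold change was 0.01 (95% interval -0.29 to 0.31). The summed pdhb loci, the beta subunit, had a log2 fold change of -0.14. The DLAT loci, which encode the acetyltransferase core, had changes of -0.07 and 0.03, and pdhx, which anchors dihydrolipoyl dehydrogenase to that core in mammals, had -0.22. None of these passed.

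Both loci of dihydrolipoyl dehydrogenase, the flavoprotein that re-oxidises lipoamide in this complex and in the 2-oxoglutarate and branched-chain 2-oxoacid complexes, had lower values in every hypoxia library. DLD (110521345) had 13.5, 12.2 and 14.8 FPKM in hypoxia, against 16.7, 19.6 and 17.7 FPKM in controls. DLD (110492846) had 10.2, 9.84 and 12.8 FPKM in hypoxia, against 13.2, 14.1 and 14.6 FPKM in controls. The groups did not overlap at either locus, but hypoxia replicate 3 of the second came close to control replicate 1. The log2 fold changes were -0.44 (SE 0.13, adjusted p = 0.067 in edgeR) and -0.38 (SE 0.14, adjusted p = 0.13), so neither passed. Summed, they had a log2 fold change of -0.41 (95% interval -0.70 to -0.12, adjusted p = 0.0821 in edgeR). Without control replicate 1, the first locus was called (-0.52, adjusted p = 0.0271 in edgeR), as was the sum (-0.49, adjusted p = 0.0359).

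The ratio of dld to pdha1 in summed FPKM, chosen after the values were seen and not tested, was 98.7%, 107% and 96.7% in hypoxia, against 123%, 142% and 145% in controls. The complex as a whole summed to 76.9, 73.0 and 92.8 FPKM in hypoxia and 89.3, 94.8 and 85.7 FPKM in controls, with overlap.

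Among the 7 tested pyruvate dehydrogenase kinase loci of 8, none passed the threshold, and the log2 fold changes ran from -0.59 to 0.83 with a median of -0.20. Of these log2 fold changes, 3 were above 0 and 4 below. The locus pdk1 (110520110), whose mammalian counterpart is a target of hypoxia-inducible factor, had 1.62, 0.70 and 1.07 FPKM in hypoxia, against 0.58, 0.66 and 0.62 FPKM in controls. The groups did not overlap, although hypoxia replicate 2 was near the controls, and the counts were low, 35 to 79 in hypoxia and 28 to 36 in controls. Its log2 fold change was 0.83 (95% interval 0.15 to 1.52, adjusted p = 0.132 in edgeR). Leaving out each library in turn gave 0.51 to 1.07, with an adjusted p of 0.0876 to 0.443 in edgeR.

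The main kinase transcript of this liver was Pdk2 (110486156), an isozyme widely expressed in mammals. It had 10.6, 13.1 and 16.7 FPKM in hypoxia, against 14.4, 21.2 and 19.5 FPKM in controls. Hypoxia replicate 3 lay above control replicate 1, so the groups overlapped. The log2 fold change was -0.48 (SE 0.20, adjusted p = 0.176 in edgeR), and without control replicate 1 it was -0.65 and past the threshold (adjusted p = 0.043). A second Pdk2 locus (110488016) had 0.70, 0.85 and 0.78 FPKM in hypoxia, against 0.51, 0.54 and 0.47 FPKM in controls. Its counts, however, were 28, 28 and 21 in hypoxia and 24, 33 and 21 in controls, and the log2 fold change from counts was 0.09. The non-overlap there was in FPKM only. The transcript length implied by its counts and FPKM ran from 1420 to 2055 bases in hypoxia and from 1922 to 2767 bases in controls.

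Pdk3 (110535441) had 1.16, 1.58 and 1.70 FPKM in hypoxia, against 2.82, 1.66 and 2.15 FPKM in controls, and the groups overlapped. Its log2 fold change was -0.59 (SE 0.21, adjusted p = 0.11 in edgeR), while the second Pdk3 locus (110534066) had 0.38. The locus pdk4 (110496630), the isozyme induced by fasting in mammals, had 6.34, 6.04 and 5.27 FPKM in hypoxia, against 8.08, 6.07 and 5.91 FPKM in controls. Control replicate 1 was the highest and the others were close together. The log2 fold change was -0.20 (95% interval -0.52 to 0.12), an interval that holds no rise above 1.5-fold.

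All kinase loci together summed to 22.01, 24.3 and 27.3 FPKM in hypoxia, against 28.3, 31.4 and 30.5 FPKM in controls, or 24.6 ± 2.67 and 30.1 ± 1.60 FPKM (SD, n = 3 each). Every hypoxia library was below every control in this sum, which was not tested. Of it, pdk2 loci made up 55.0% to 68.0% in hypoxia and 56.8% to 72.6% in controls, and pdk1 made up 2.88% to 7.36% in hypoxia and 2.04% to 2.09% in controls. The kinase sum was also set against the sum of the pdha1, pdhb, dlat and dld loci, without pdhx. It was 30.9%, 36.1% and 31.9% of that sum in hypoxia, against 34.4%, 35.9% and 38.5% in controls. That ratio was 33.0 ± 2.76% in hypoxia and 36.3 ± 2.07% in controls, with overlap. Taken from counts, it was 42.6%, 50.3% and 43.8% in hypoxia, against 50.9%, 50.5% and 52.7% in controls (45.6 ± 4.14% and 51.4 ± 1.17%). The groups did not overlap, but hypoxia replicate 2 at 50.3% was close to control replicate 2 at 50.5%. Neither version was tested. The 4 phosphatase loci among the members, catalytic PDP1 and the regulatory PDPR, did not pass, with log2 fold changes from -0.29 to 0.26. A locus outside the members, pdp2 (110521352), is described as a putative pyruvate dehydrogenase phosphatase. It had 0.31 (adjusted p = 0.437 in edgeR). The PDP1 loci stood at 0.26 and -0.29, and their sum at 0.01.

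**Figure D3:**
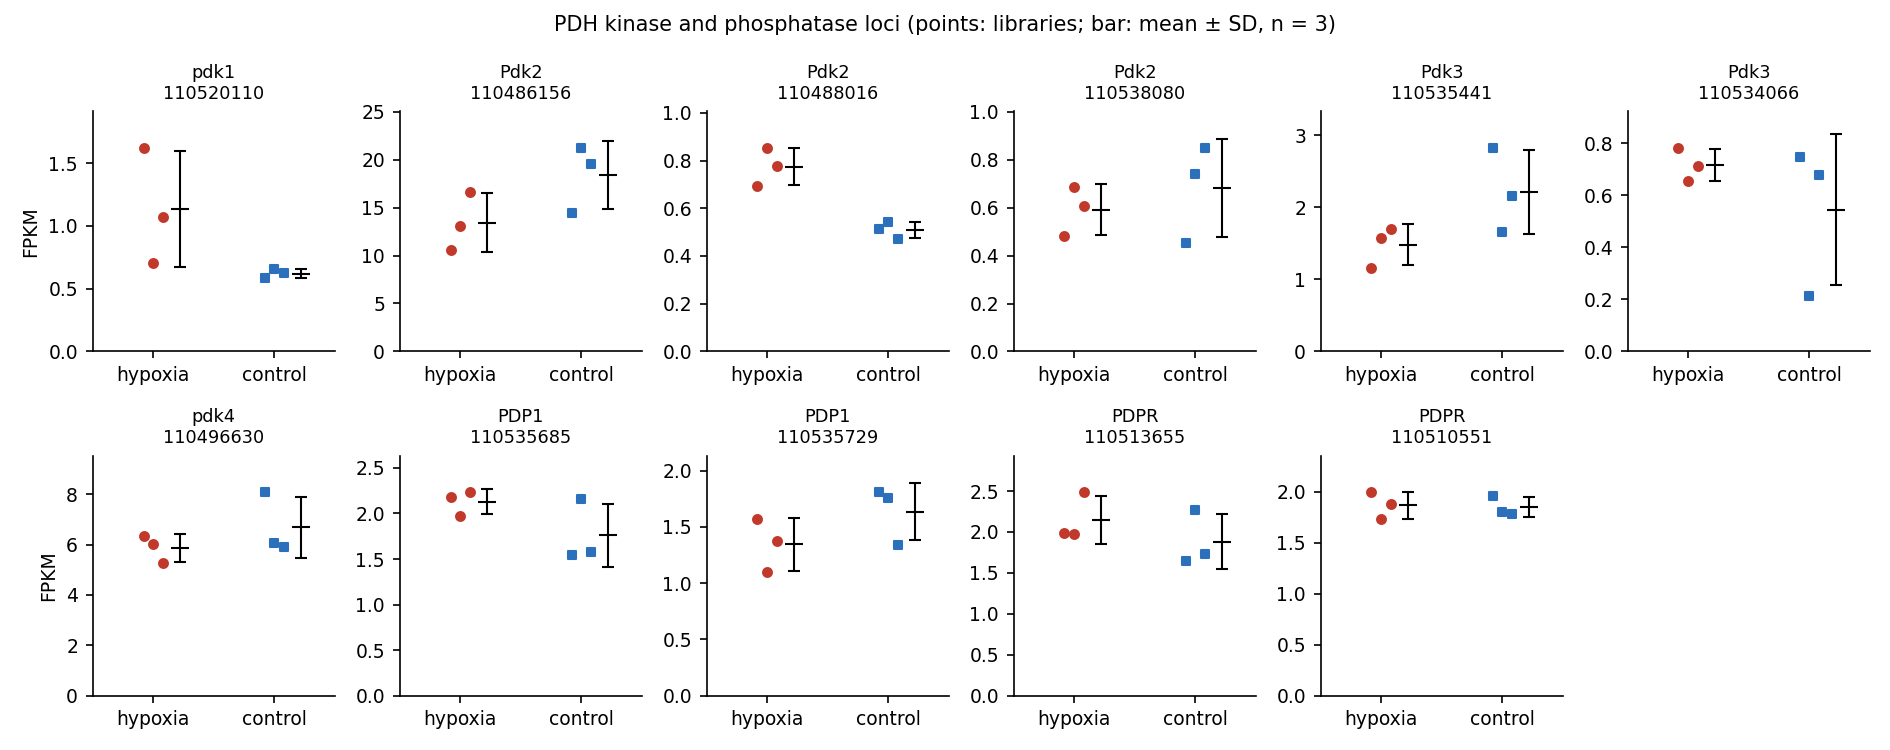
FPKM of the tested pyruvate dehydrogenase kinase and phosphatase loci among the members in each library, hypoxia left of control, with mean and SD. The locus pdk1 is higher in all hypoxia libraries (0.70 to 1.62 against 0.58 to 0.66 FPKM), Pdk2 (110486156) and Pdk3 (110535441) have lower means with overlap, and none passed the adjusted threshold.

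All 3 loci of citrate synthase, which condenses acetyl-CoA with oxaloacetate, had log2 fold changes above 0, and none passed. The locus cs (110492108) had 3.57, 2.90 and 3.75 FPKM in hypoxia, against 2.48, 2.07 and 2.66 FPKM in controls. The groups did not overlap, and the log2 fold change was 0.47 (SE 0.15, adjusted p = 0.0756 in edgeR). The other loci had 0.05 and 0.18, and the sum 0.27 (adjusted p = 0.29 in edgeR). The lysine methyltransferase of citrate synthase, cskmt, had 1.05, 0.97 and 0.48 FPKM in hypoxia, against 0.27, 0.56 and 0.35 FPKM in controls. With 5 to 20 counts in a library, its log2 fold change of 1.06 had a 95% interval from -0.03 to 2.15.

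Among the isocitrate dehydrogenases, the 1 locus that rose encodes the NADP-dependent cytosolic enzyme, which makes NADPH outside the mitochondrial cycle. The locus idh1 (110520228) had 10.5, 7.18 and 8.65 FPKM in hypoxia, against 6.14, 6.31 and 5.36 FPKM in controls. Hypoxia replicate 2 was the closest to the controls, and the groups did not overlap. The log2 fold change was 0.55 (SE 0.14, 95% interval 0.24 to 0.85, adjusted p = 0.0411 in edgeR). In the authors' deposited table it was 0.57 with an adjusted p of 0.0513. Leaving out any of the 3 hypoxia libraries, or control replicate 2 or 3, ended the call. Each of these omissions also cut the calls over all tested genes, from 7.22% to between 1.86% and 2.56%. Over all 6 fits without 1 library, the idh1 log2 fold change was 0.44 to 0.64 and the adjusted p 0.0482 to 0.158 in edgeR. With all libraries, limma gave an adjusted p of 0.0986 and 0.102. The other locus, Idh1 (110501851), was the more abundant, with 19.1, 18.4 and 13.7 FPKM in hypoxia, against 17.2, 15.2 and 19.5 FPKM in controls. Its log2 fold change was -0.04, and the sum of both was at 0.06 (adjusted p = 0.849 in edgeR). The 4 loci of idh2, the mitochondrial NADP enzyme, lay between -0.29 and 0.07.

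The NAD-dependent enzyme of the cycle has catalytic alpha and regulatory beta and gamma subunits. Idh3a (110499795) had 5.44, 3.51 and 5.97 FPKM in hypoxia, against 3.35, 3.41 and 3.63 FPKM in controls. Hypoxia replicate 2 lay among the controls and the others above them. Its log2 fold change was 0.49 (SE 0.19, adjusted p = 0.141 in edgeR), the second alpha locus (118944396) had 0.64, and their sum 0.53 (adjusted p = 0.099).

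The gamma locus Idh3g (110532716) had 2.51, 2.71 and 3.04 FPKM in hypoxia, against 1.72, 1.83 and 1.23 FPKM in controls. All hypoxia libraries lay above the controls. The log2 fold change was 0.77 (95% interval 0.30 to 1.24, adjusted p = 0.0522 in edgeR), just outside the threshold, and DESeq2 placed it inside (adjusted p = 0.0481). The more abundant gamma locus (110491943) had -0.02. Its share of the gamma FPKM was 73.7%, 73.8% and 75.4% in hypoxia, against 81.7%, 82.9% and 85.6% in controls, and the summed gamma loci had 0.10. The beta locus idh3b (110493992) had -0.05. A row with the symbol IDH3B (110528465) is described as a gamma subunit and was below the FPKM filter, with a mean of 0.366 FPKM, so it was not tested.

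The 1 locus that fell was ogdh (110509550), which encodes the thiamine-dependent decarboxylase of the 2-oxoglutarate dehydrogenase complex and commits 2-oxoglutarate to succinyl-CoA. It had 12.8, 13.3 and 12.4 FPKM in hypoxia, against 16.4, 21.7 and 21.5 FPKM in controls. The hypoxia libraries were close together and all below the controls, of which replicate 1 was the lowest. The log2 fold change was -0.62 (SE 0.15, 95% interval -0.95 to -0.29, adjusted p = 0.0335 in edgeR), on 1373 to 1605 counts in hypoxia and 1898 to 2894 counts in controls. The authors' deposited table gives -0.63 with an adjusted p of 0.00462. Leaving out any of the 3 hypoxia libraries, or control replicate 2 or 3, put the adjusted p in edgeR above 0.05, up to 0.121. Each of these omissions also cut the calls over all tested genes, from 7.22% to between 1.86% and 2.56%. Without control replicate 1, the adjusted p of ogdh was 0.00542 in edgeR. The log2 fold change was -0.76 to -0.54 over these 6 fits.

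The paralog ogdha (110526099) had 5.0, 5.28 and 6.96 FPKM in hypoxia, against 5.62, 6.65 and 5.27 FPKM in controls, and a log2 fold change of -0.05 (SE 0.16). The groups overlapped fully. The ogdh (110509550) share of the enzyme's FPKM was 71.5%, 71.1% and 63.6% in hypoxia, against 73.5%, 76.4% and 79.8% in controls. The summed loci had a log2 fold change of -0.48 (95% interval -0.79 to -0.18, adjusted p = 0.0584 in edgeR). The 4 loci of dlst, the succinyltransferase core of the same complex, lay between -0.36 and 0.29, and none passed. With the shared DLD counted apart, the complex summed to 59.1, 53.0 and 68.1 FPKM in hypoxia and 68.0, 77.1 and 73.3 FPKM in controls, where hypoxia replicate 3 just passed control replicate 1.

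**Figure D4:**
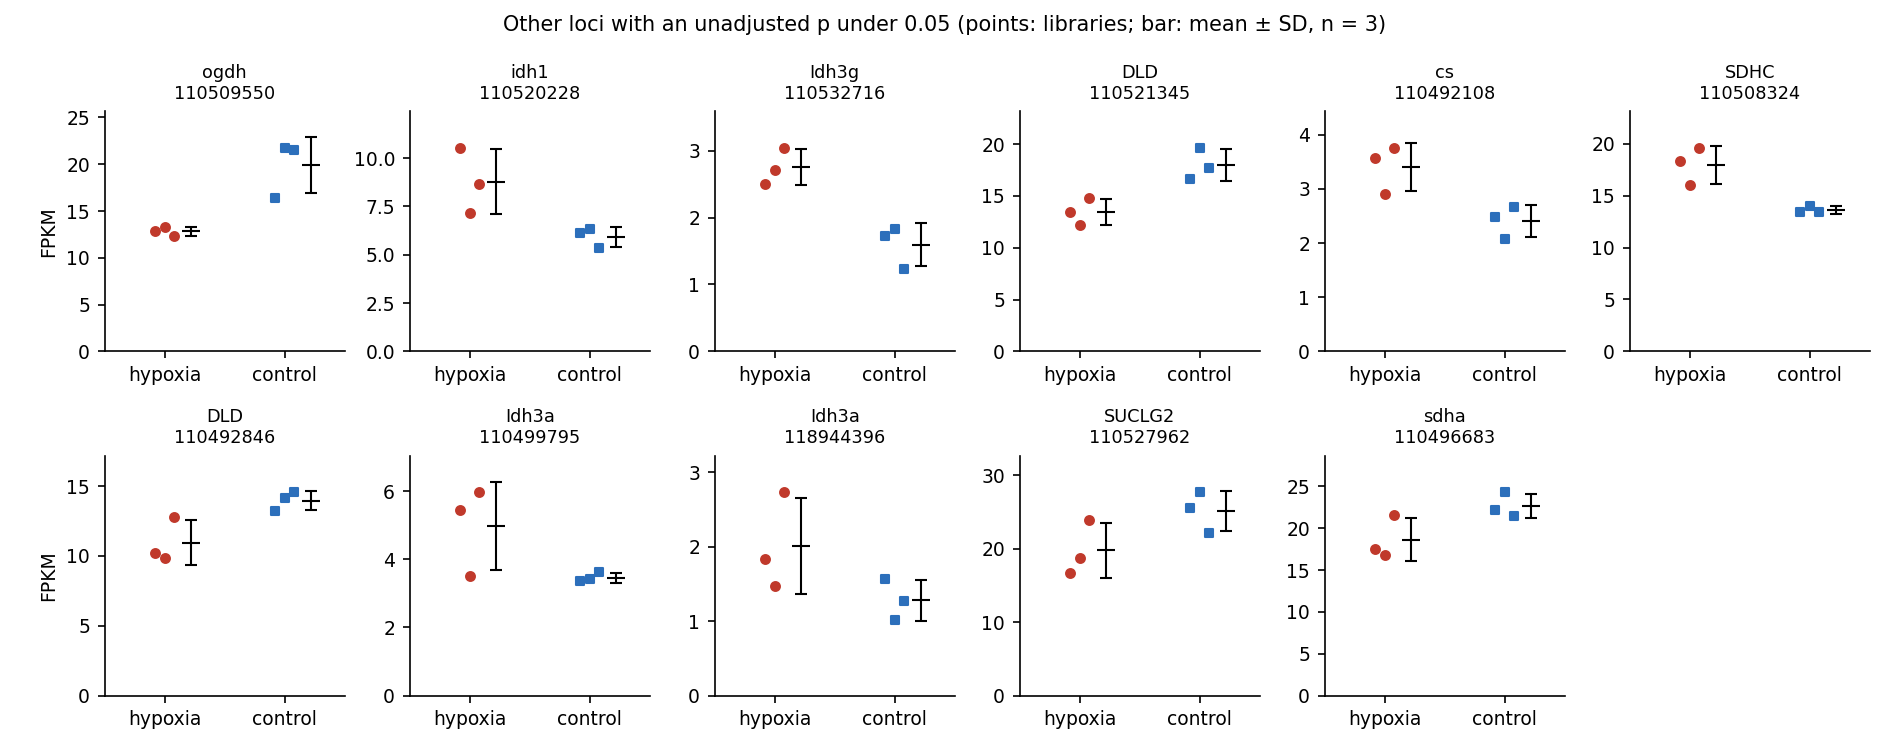
FPKM in each library of the loci other than kinases with an unadjusted p under 0.05, hypoxia left of control, with mean and SD. Among these, ogdh (-0.62) and idh1 (0.55 on the log2 scale) passed the adjusted threshold.

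The 6 loci of succinyl-CoA ligase, the step of substrate-level phosphorylation, included the most abundant of all members, suclg1 (100301669). It had 50.9, 43.4 and 54.3 FPKM in hypoxia, against 40.2, 40.6 and 41.1 FPKM in controls. The controls were within 1 FPKM of each other and all below hypoxia, but the log2 fold change of 0.26 (SE 0.12) had an adjusted p of 0.228 in edgeR. The other alpha locus (110497514) was also higher in every hypoxia library, with 0.23. The GTP-specific beta locus SUCLG2 (110527962) had 16.7, 18.7 and 23.9 FPKM in hypoxia, against 25.6, 27.7 and 22.2 FPKM in controls. The groups overlapped, and its log2 fold change was -0.37 (adjusted p = 0.181 in edgeR). The second beta locus had 0.05, and the ATP-specific SUCLA2 loci 0.10 and -0.09.

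Succinate dehydrogenase is both a cycle enzyme and respiratory complex II. Its flavoprotein sdha (110496683) had 17.5, 16.8 and 21.5 FPKM in hypoxia, against 22.2, 24.3 and 21.4 FPKM in controls. Hypoxia replicate 3 reached the lowest control, and the log2 fold change was -0.31 (SE 0.13, adjusted p = 0.192 in edgeR). The most abundant iron-sulfur locus, sdhb (110494374), had -0.30 (adjusted p = 0.245 in edgeR). The other tested sdha loci had -0.07 and -0.34, and the other tested sdhb locus (110528062) had 0.34. None of these passed.

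The membrane anchor SDHC (110508324) had 18.3, 16.0 and 19.6 FPKM in hypoxia, against 13.4, 14.04 and 13.4 FPKM in controls. The groups did not overlap, with a log2 fold change of 0.38 (SE 0.13, adjusted p = 0.101 in edgeR), while the second sdhc locus had -0.05. The anchor sdhdb had 0.34 and 0.15 at its loci. The difference between the catalytic and the anchor loci was not tested. The complex summed to 66.9 to 85.7 FPKM in hypoxia and 73.6 to 81.8 FPKM in controls. None of its 7 assembly factor loci passed, and sdhaf2 (110526534), which helps attach the flavin, was the 1 without overlap (8.79 to 10.6 FPKM in hypoxia, 7.49 to 8.61 FPKM in controls). That is 14.3% of these loci without overlap higher, against 13.9% of all tested genes.

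The fumarase loci had log2 fold changes of 0.05 and -0.26, and the MDH2 loci of mitochondrial malate dehydrogenase -0.21 and -0.07. None of these 4 passed, and their sum was 92.4 to 119 FPKM in hypoxia and 100.2 to 118 FPKM in controls. MDH2 (110537548) had 39.1, 33.0 and 42.8 FPKM in hypoxia, against 35.7, 47.9 and 46.3 FPKM in controls, and the groups overlapped.

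Paralogs of 1 enzyme were also set against each other. Of the 29 enzymes with more than 1 tested locus, the share of FPKM from the most abundant locus was without overlap higher in hypoxia for 2 (pdp1 and sdhc) and lower for 6 (ogdh, pdk2, pdk3, cs, idh3g and suclg2). For pdk2 the gap was between 89.6% in hypoxia replicate 3 and 89.7% in control replicate 1. In shares of counts, chosen after the data were seen, pdk2 overlapped (91.2% in hypoxia replicate 3, 89.8% in control replicate 1), and the other 7 stayed apart. The same count was not made over other genes, and no test was run on these shares. Reads of near-identical copies may have been split in counting, so the shares carry that uncertainty.

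Within the groups the members often ranked the libraries alike. Hypoxia replicate 3 was the highest of its group at 47 of the 72 loci (65.3%, against 41.9% of all tested genes), and hypoxia replicate 2 the lowest at 45 (62.5%, against 46.2%). Control replicate 1 was the lowest of its group at 31 loci (43.1%, against 26.5%). The FPKM of all 87 rows summed to 686, 617 and 759 in hypoxia and 672, 733 and 695 in controls, so the spread between the hypoxia libraries was wider than the distance between the groups.

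Neighbouring pathways gave a reference for these values. Of 101 tested loci in lists of cytosolic counterparts, anaplerotic enzymes, lactate dehydrogenases and monocarboxylate transporters, carriers of cycle intermediates, cofactors, regulators and related 2-oxoacid dehydrogenases, 2 rose and 10 fell, against 3.83% of all tested genes higher and 3.39% lower. Their median log2 fold change was -0.08, against -0.03 for the member loci. Of the list of cytosolic counterparts, 2 of 8 fell. MDH1 (110486012), cytosolic malate dehydrogenase, had 70.9, 73.2 and 80.8 FPKM in hypoxia, against 104, 114 and 119 FPKM in controls (log2 fold change -0.61, adjusted p = 0.0229 in edgeR). Cytosolic aconitase aco1 (110500623) had 39.3, 38.6 and 42.1 FPKM in hypoxia, against 53.2, 86.4 and 86.5 FPKM in controls (-0.95, adjusted p = 0.0191 in edgeR). Both were without overlap. The other MDH1 loci had -0.28 and 0.0. A further locus described as cytosolic malate dehydrogenase, cmdg (100136010), had -0.47 (adjusted p = 0.0969 in edgeR). None of these passed.

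Of 31 anaplerotic and cataplerotic loci, 5 fell and none rose, against the same shares of all genes. Malic enzyme me1 (110519027), which makes NADPH from malate, had 25.9, 19.3 and 34.0 FPKM in hypoxia, against 49.6, 61.2 and 38.8 FPKM in controls (-0.94, adjusted p = 0.0217 in edgeR). Glutamate dehydrogenase glud1 (100379123), which feeds 2-oxoglutarate into the cycle, had 45.3, 46.7 and 47.4 FPKM in hypoxia, against 67.9, 70.0 and 71.5 FPKM in controls (-0.57, adjusted p = 0.0227 in edgeR). The groups of both were apart. The more abundant glud1 (100136067) had -0.55 (adjusted p = 0.0908 in edgeR) and GLUD1 (100136626) had 0.26, and neither passed. The other loci that fell were ME3 (110489963), described as an NADP-dependent malic enzyme, PCK2 (100135908) and GOT1 (110499344), with -0.89, -0.67 and -0.66. Their paralogs did not pass. The remaining GOT1 loci had 0.52, 0.45 and 0.57, and the second PCK2 locus -0.19. Me3 (110520569) had -0.45, and me3 (110501338) had a fold of 1.0. Pyruvate carboxylase PC, which makes oxaloacetate from pyruvate, had -0.10 and -0.01 at its tested loci and did not pass.

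**Figure D5:**
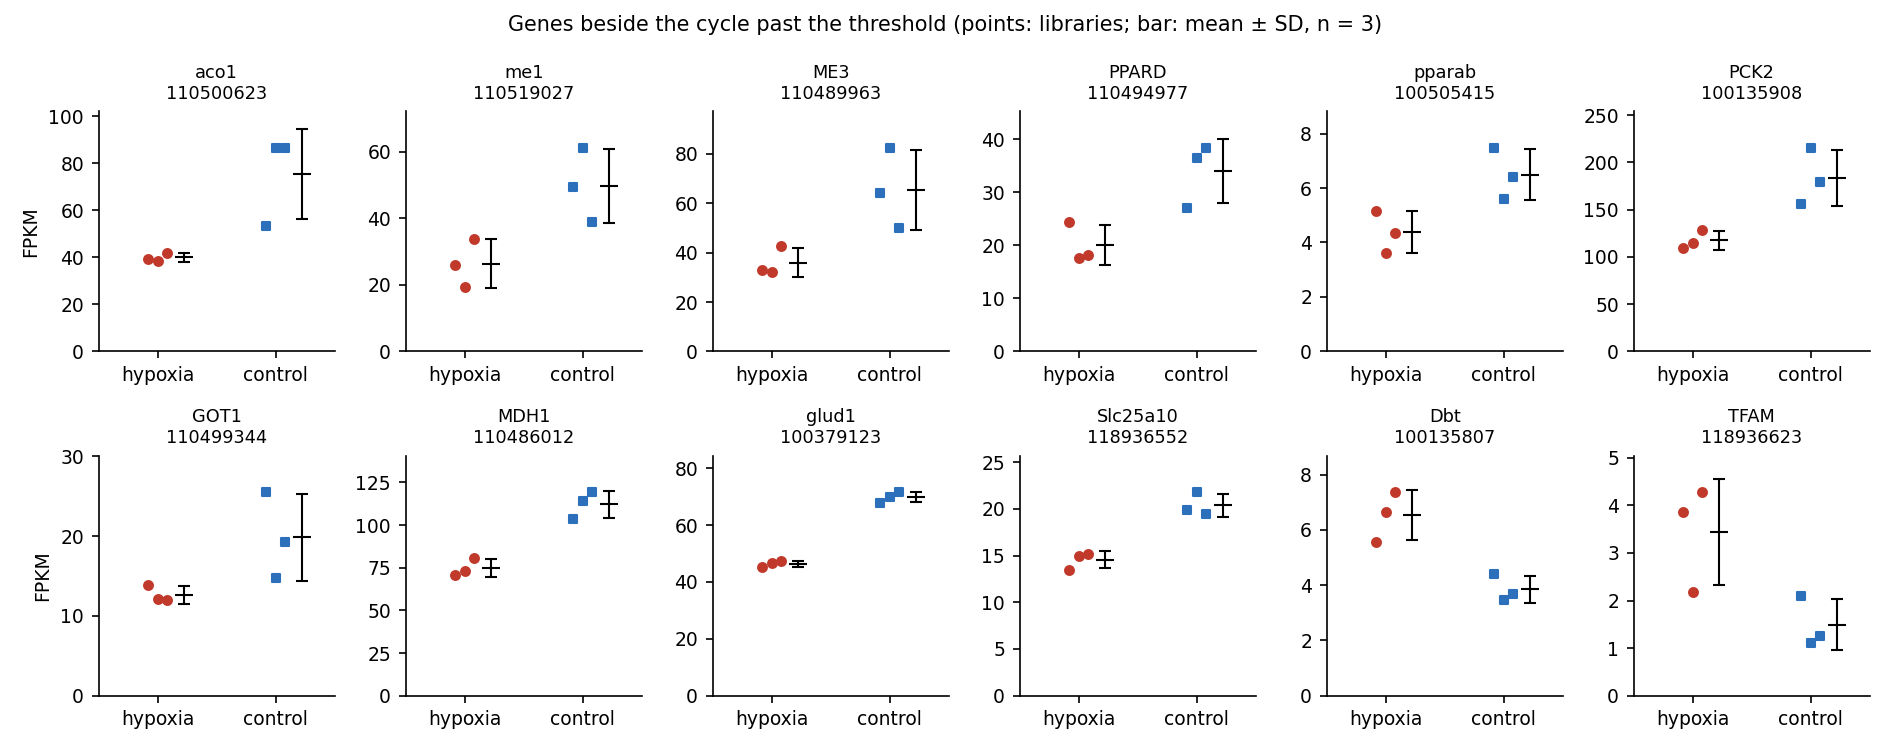
FPKM in each library of genes next to the cycle that passed the adjusted threshold in edgeR, hypoxia left of control. Dbt and TFAM are higher in hypoxia, and the others, such as MDH1 (70.9 to 80.8 against 104 to 119 FPKM) and glud1 (45.3 to 47.4 against 67.9 to 71.5 FPKM), lower.

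Among 11 loci of related dehydrogenases, 1 rose and none fell, against 3.83% of all tested genes higher and 3.39% lower. The locus that rose was Dbt (100135807), the acyltransferase core of the branched-chain complex that also uses DLD. It had 5.56, 6.65 and 7.36 FPKM in hypoxia, against 4.41, 3.45 and 3.69 FPKM in controls (0.74, SE 0.16, adjusted p = 0.0212 in edgeR). All hypoxia libraries were above all controls. The second Dbt locus (110489303) had 0.21 with overlap and did not pass. Of 27 regulator loci, 1 rose and 2 fell, against the same shares of all tested genes. The locus that rose was TFAM (118936623), the mitochondrial transcription factor. It had 3.86, 2.19 and 4.28 FPKM in hypoxia, against 2.11, 1.12 and 1.27 FPKM in controls (1.17, adjusted p = 0.0377 in edgeR). The second TFAM locus (110518872) had 0.46 with overlap and did not pass. The peroxisome proliferator-activated receptors pparab and PPARD (110494977), the loci that fell, had -0.68 and -0.74. PPARA (110521393), the more abundant alpha locus, had 0.77 (adjusted p = 0.115 in edgeR). The gamma loci had 0.15, -0.01 and -0.25, and ppardb -0.24, and none of these passed. Among 11 carriers, 1 fell and none rose, again against these shares of all tested genes. The carrier that fell was Slc25a10 (118936552), the dicarboxylate carrier, at -0.51 (adjusted p = 0.0324 in edgeR). The other tested Slc25a10 locus (110513279) had -0.38 and did not pass.

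None of 7 loci of lactate dehydrogenases and monocarboxylate transporters passed. None of 5 loci of the cofactor list, which includes pdp2, passed either. Lactate dehydrogenase ldhb (110500268) had 438, 467 and 552 FPKM in hypoxia, against 477, 514 and 524 FPKM in controls (-0.08, adjusted p = 0.776 in edgeR). The groups overlapped. Each of the 12 neighbouring calls was lost when some library was left out. Of the 6 such fits, me1, ME3 and pparab held in 3, TFAM and Dbt in 2, and the other 7 in 1. Calls over all tested genes also fell when any library but control replicate 1 was left out, from 7.22% to between 1.86% and 2.56%.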

How the data were processed

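RNA-seq of 3 hypoxia and 3 control liver libraries was analysed from the authors' deposited gene table, which holds raw counts, FPKM values, and the log2 fold change, p-value and adjusted p-value of the authors' own comparison. The submitters' processing notes name TopHat2 2.1.1 and Bowtie2 2.2.8, without a role. Quantifier, annotation, genome build and the authors' test: not given in the sources used here. Of the 87 gene IDs, 86 were found in the RefSeq gene table given for this species, which was used only for that match.

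Counts were fitted with edgeR 4.0.16 (R 4.3.3; TMM, group as the only term, quasi-likelihood test, two-sided) over the 19365 genes whose FPKM averaged 0.5 or more, with Benjamini-Hochberg adjustment and a threshold of 0.05. Fold changes are unshrunken, and SE and 95% intervals come from the same fit. The counts of an enzyme's loci were also summed before a second fit. The scripts were tested on simulated data. Levels are FPKM, so they compare genes per length.

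Alternatives were DESeq2 1.42.0, its size factors in edgeR, no filter, a mean FPKM of at least 1, limma 3.58.1 on log2(FPKM + 0.5) or log2(FPKM + 0.1), a replicate block, and leaving out each library. Named are the called loci, every tested kinase and phosphatase locus among the members, and the most abundant locus of each enzyme. Up to 10 further loci of smallest p are named, as are called genes of the neighbour lists (the 2 most abundant where none passed). Genes named outside that rule were chosen after their values were seen. Members, lists and cell type markers were chosen with earlier results of these data known. Small RNA libraries were not used. Some items of the neighbour lists are not reported here.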

Additional observations from a re-analysis of the deposited data

How the results depend on the processing

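Of the 67 named genes, 14 passed the threshold in edgeR. Over 866 alternative values, none changed the sign of a called gene, 80 put a called gene outside the threshold and 7 brought an uncalled one inside. In 19 uncalled genes the sign changed in some alternative, the largest of them at 0.14 on the log2 scale. Higher members numbered 2 with DESeq2, 2 without the filter and 2 at a mean FPKM of at least 1 (idh1 and Idh3g), but 0 with limma at either pseudocount, and 0 to 1 when a library was left out. Lower members numbered 0 to 3 when a library was left out, and 3 without control replicate 1 (ogdh, DLD and Pdk2). With loci summed, the number of lower enzymes was 1 in DESeq2 and 0 to 2 when a library was left out (2 without control replicate 1). Of all features in those fits, DESeq2 called 4.35% lower, and edgeR without control replicate 1 called 5.46% lower. No higher enzyme was called in any setting. Neighbouring genes that rose numbered 4 without the filter, 1 with limma at either pseudocount and 0 to 5 when a library was left out. Those that fell numbered 15 with DESeq2, 15 without the filter (128 tested loci) and 7 with the replicate block. They numbered 5 with limma at either pseudocount, and 0 to 14 when a library was left out. The shares of all tested genes differed between these settings. With DESeq2, 4.91% were higher and 4.34% lower. Without the filter, 2.88% were higher and 2.53% lower, and at a mean FPKM of at least 1, 4.71% and 4.13%. With limma they were 2.63% and 1.64% at a pseudocount of 0.5, and 2.41% and 1.58% at 0.1. Leaving out any library but control replicate 1 left 1.86% to 2.56% called in both directions together. Without control replicate 1, 5.84% were higher and 5.45% lower. The median log2 fold change of the member loci lay between -0.06 and 0.02. With the replicate number as a block, 0 members were higher and 1 lower, against 2.87% and 2.54% of all tested genes. Deviations from the group mean had r between -0.0543 and 0.0369 for same-numbered libraries, and between -0.0534 and 0.0845 for the others. With 3 libraries a group, these values cannot decide whether the number is a pairing. Loci with few counts, such as pdk1 and cskmt, have intervals that reach beyond 2-fold, so depth limits what their values show.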
